A study of Homo sapiens with 10 samples.

Results

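IDH2 and other enzymes of the tricarboxylic acid (TCA) cycle were followed at the RNA level in DLD-1 cells, an established line from a human colorectal adenocarcinoma. The members were 9 named genes, IDH1, IDH2, IDH3A, IDH3B, CS, OGDH, FH, MDH1 and MDH2. Each was read from array probes annotated to that gene alone, taking the probe with the highest mean. This gave values for 7 of the 9 members, out of 14232 genes with such a probe, and all 7 passed the filter on dim probes. The only probe listed for IDH3A is shared with ACSBG1, so IDH3A was not used. No probe was listed for FH, alone or shared, so FH was not analysed here. The set was chosen by the measured level of IDH2, which had been seen to be lower than in the empty vector clones. Its differences from those clones are therefore given as a description, with no test. CS and FH are a synthase and a hydratase, and IDH1 is a cytosolic enzyme, so the set is wider than the dehydrogenases of the cycle.

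The 10 gene-level exon arrays came from 8 clones or cultures. The short hairpin RNA (shRNA) construct V2LHS_62673 against LMNB1, the lamin B1 gene, was carried by single cell clones 8, 9 and 12, with 1 array each. Construct V2LHS_62675 was carried by clone 2, with 3 arrays, which the sample titles call clone 12 and the design text calls repeats of clone 2. Unmodified wild type cells gave 1 array, and 3 clones with an empty vector gave 1 array each. The titles of the empty vector arrays call them biological replicates 1 to 3 and give no clone number. Each was taken as a separate clone. All hairpin and empty vector cultures were kept under puromycin and wild type cells were not, so drug and cloning are shared by every group but the wild type. Construct V2LHS_62675 is represented by 1 clone and the wild type by 1 culture, so the spread assumed for both is that of the other groups.

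The probe for LMNB1, which the annotation shares with PCIF1, read 7.45 to 7.79 log2 units on the hairpin arrays, against 8.84 to 9.52 on the wild type and empty vector arrays. Clone 8 stood apart from the rest. Its correlation with the other arrays over 22011 probes was 0.915 to 0.926, while those correlated at 0.986 to 0.995 with each other. Its values were also compressed, with an SD over probes of 1.92 on the log2 scale, against 2.08 to 2.14 on the others. Of 10 colon epithelium markers, 8 passed the filter on dim probes, while KRT20 and CEACAM5 did not. Over all features 11199 of 14233 passed it, a similar share. The mean level of the epithelium list was 9.28 in clone 8 and 9.13 to 9.53 in the other samples. Mean levels of leukocyte, fibroblast and endothelium markers were 6.03, 6.45 and 6.11 in clone 8, and at most 5.71, 6.02 and 5.57 elsewhere. Dim probes as a whole also read higher in clone 8. The 25th percentile over all its probes was 6.32, against 5.82 to 5.96 on the other arrays, and the median 7.62 against 7.34 to 7.41. Of the leukocyte, fibroblast and endothelium markers 3 of 7, 5 of 8 and 2 of 5 measured genes passed the filter. Their part in the results on clone 8 was not tested. In RNA from whole cultures, fewer cells that express a gene and less RNA per cell cannot be told apart.

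The TCA cycle runs in the mitochondrial matrix, where acetyl groups are joined to oxaloacetate by citrate synthase and oxidised by a series of dehydrogenases that feed electrons to the respiratory chain. Isocitrate is oxidised to 2-oxoglutarate by separate enzymes. IDH3, built from alpha, beta and gamma subunits, uses NAD and belongs to the cycle proper. IDH2 in mitochondria and IDH1 in the cytosol and peroxisomes use NADP, are reversible, and are known as sources of NADPH for reductive synthesis and for glutathione. The colon epithelium and tumours derived from it express all of these enzymes.

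IDH2, on chromosome 15 (GRCh38.p14, 90083045 to 90102468), was low in clones 9, 12 and 2 and in wild type cells, higher in the empty vector clones, and highest in clone 8. Its log2 level was 10.17, 8.65 and 8.62 in clones 8, 9 and 12 of construct V2LHS_62673. It was 8.39, 8.45 and 8.38 on the 3 arrays of clone 2. Wild type cells had 8.75, and the empty vector clones had 9.30, 9.44 and 9.43. Clones 9, 12 and 2 thus lay below every control array, wild type included, whereas clone 8 lay above every one of them. Clones 9 and 12 differed from the empty vector mean by -0.75, which is 59.3% of that level. Clone 2 differed by -0.98, or 50.6% of it. Wild type cells, which carry neither hairpin nor vector, differed by -0.64, or 64.3% of it. These values leave out clone 8 and are given without errors, because IDH2 was chosen for this difference. With clone 8 included, construct V2LHS_62673 averaged 9.15 ± 0.88 (SD, n = 3) and the empty vector clones 9.39 ± 0.08 (SD, n = 3). That difference was -0.24, and leaving out 1 clone or array at a time moved it from -0.75 without clone 8 to 0.02 without clone 12, which turns its sign. Thus IDH2 lay below the empty vector clones in 3 of the 4 hairpin clones and in wild type cells. Since IDH2 was chosen for that direction, this is a description and lends it no support.

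**Figure D1:**
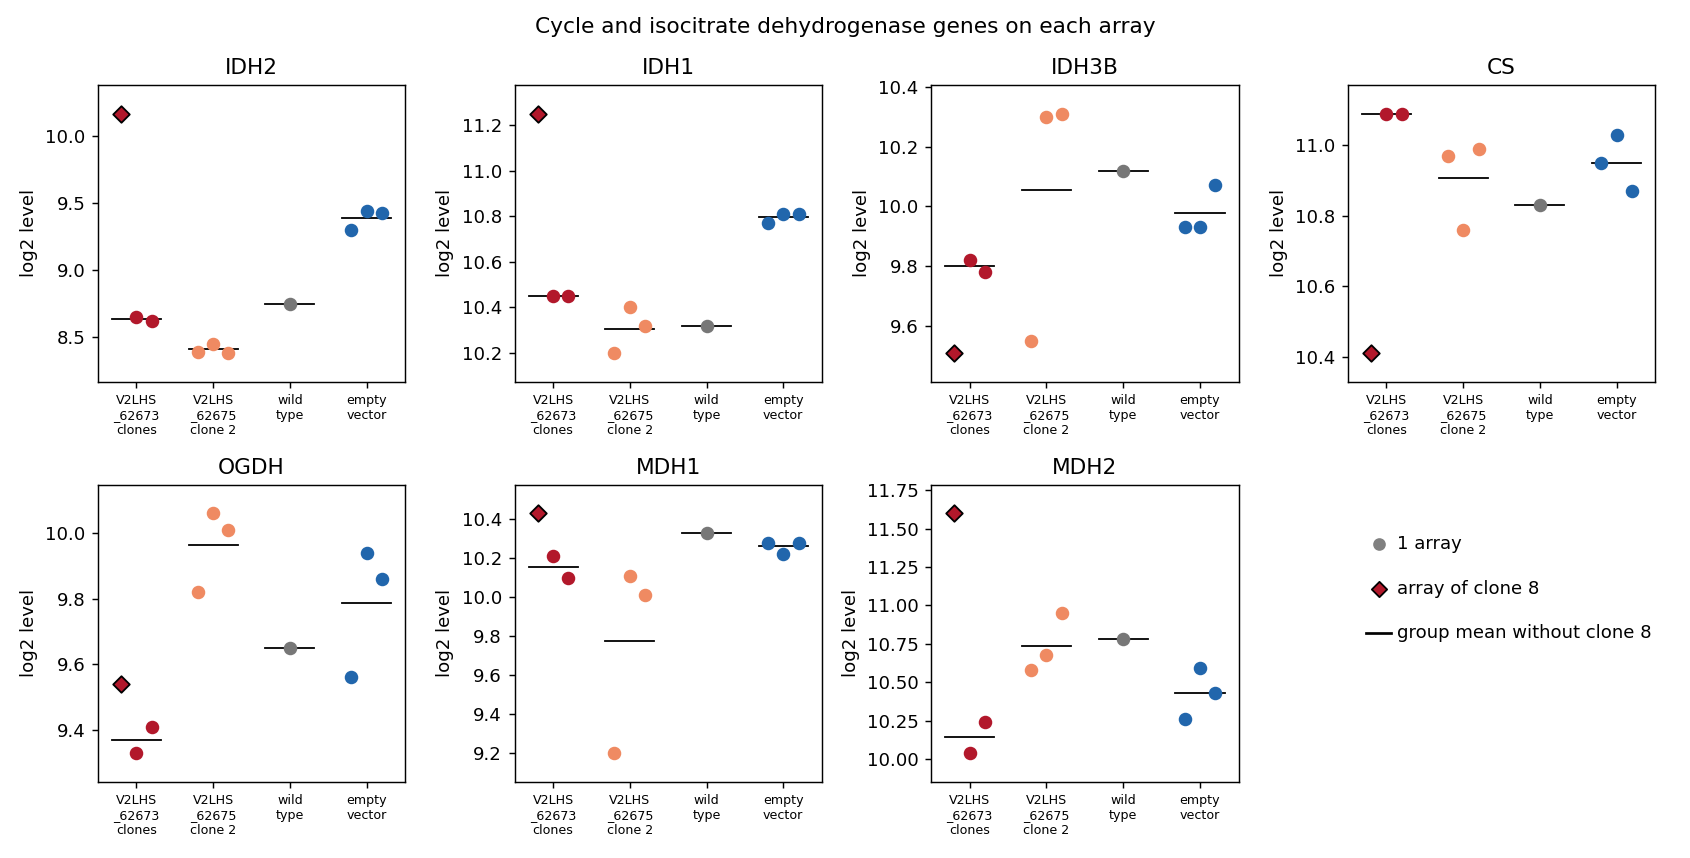
Log2 level of the 7 measured members on each of the 10 arrays, in groups from left to right of construct V2LHS_62673, clone 2 of construct V2LHS_62675, wild type and empty vector. Points are arrays, the outlined diamond is clone 8 and lines are group means without clone 8; vertical axes differ between panels and do not start at 0. In IDH2 and IDH1 clone 8 is highest and the empty vector clones come next, while the order of the lower groups differs between the genes.

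Comparisons that leave the empty vector level out can be tested for IDH2. Clones of construct V2LHS_62673 differed from wild type cells by 0.39 with all clones (SE 0.57, 95% interval -0.94 to 1.73, limma adjusted p = 0.877). Without clone 8 the difference turned to -0.12 (SE 0.13, interval -0.39 to 0.16, adjusted p = 0.773). Over all alternatives its adjusted p was 0.696 to 0.981. Clone 2 differed from the clones of construct V2LHS_62673 by -0.74 (SE 0.57, interval -2.07 to 0.60, adjusted p = 0.931). Without clone 8 this was -0.23 (SE 0.13, interval -0.51 to 0.05, adjusted p = 0.451), and over all alternatives the adjusted p was 0.332 to 0.99. Neither difference passed with or without clone 8.

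IDH1, the cytosolic NADP enzyme on chromosome 2 (208236227 to 208255071), was likewise highest in clone 8, next in the empty vector clones and lower in the other groups. Clones 8, 9 and 12 had log2 levels of 11.25, 10.45 and 10.45. The 3 arrays of clone 2 had 10.20, 10.40 and 10.32. Wild type cells had 10.32, against 10.77, 10.81 and 10.81 in the empty vector clones. Again clone 8 was above every other array, the empty vector clones came next with an SD of 0.02, and the remaining arrays lay below all of them without overlap. How many of all 11199 features separate in such ways was not counted, for IDH1 or for any other gene named. With all clones none of the 6 members other than IDH2 passed in any comparison, and the share of all 11199 features called was 0% in each. Without clone 8, IDH1 fell by 0.49 in clone 2 (SE 0.11, limma adjusted p = 0.0421) relative to the empty vector clones, where it was at 71.3% of their level. In wild type cells IDH1 fell by 0.48 (SE 0.11, limma adjusted p = 0.0447). In clones 9 and 12 the difference was -0.35 (SE 0.09, adjusted p = 0.0957), which did not pass. Over all alternatives the adjusted p of IDH1 was 0.0179 to 1 for clone 2, 0.0433 to 1 for wild type cells and 0.0536 to 0.966 for construct V2LHS_62673. These 3 comparisons use the same empty vector arrays. Leaving out clone 8 was chosen with its values known, and it reduced the residual degrees of freedom of the fit to 3. IDH1 in clones 9 and 12 stood 0.13 above wild type cells (SE 0.12, adjusted p = 0.685), and clone 2 differed from clones 9 and 12 by -0.14 (SE 0.12, adjusted p = 0.72).

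Among 3657 genes that passed the filter and had an SD of at least 0.3 over the 8 clone-level samples, IDH1 was the gene most like IDH2. Pearson's r between them was 0.98 and Spearman's rho 0.881 over the 8 samples. Without clone 8 they were 0.956 and 0.821. Without clones 8 and 2, which lie farthest from the IDH2 median, r was 0.944. Next came PNRC1, a nuclear receptor coactivator gene (r = 0.969, rho = 0.905), the ubiquitin-conjugating enzyme gene UBE2H (0.967 and 0.881), SIDT1, which encodes a membrane protein linked to RNA transport (0.953 and 0.952), and PGGHG (0.94 and 0.786). Without clone 8 these 4 genes had r of 0.951, 0.929, 0.901 and 0.864. In all, 36 genes had r over 0.9 with all clones. Without clone 8, 71 of the same 3657 genes did, and IDH1 then ranked 13. That pool was set by the SD with clone 8 included, so this count and rank still depend on clone 8. Over the 9 arrays without clone 8 the SD of IDH1 was 0.23. The samples share the step between the empty vector clones and the others, and the high value of clone 8, so these correlations are a description of few points.

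**Figure D2:**
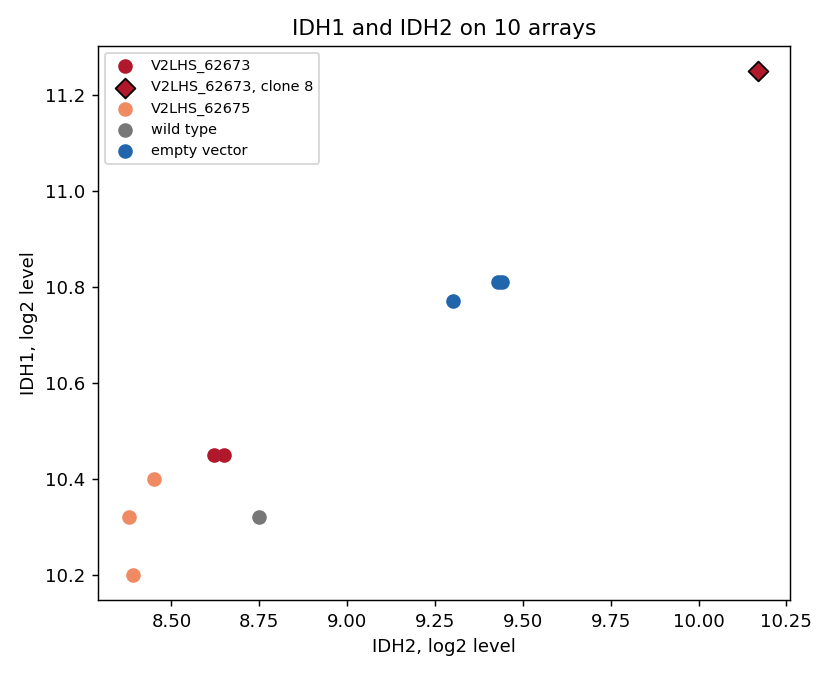
Log2 level of IDH1 against that of IDH2 on the 10 arrays, coloured by group, with clone 8 as an outlined diamond. The arrays fall at 3 places, clone 8 at the upper right, the 3 empty vector clones in the middle and the hairpin clones 9, 12 and 2 with wild type cells at the lower left.

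Start site sequences are shown for these 2 genes because they varied together over the clones. They are RefSeq windows of GRCh38.p14 from 250 bases before to 50 after an annotated start, read 5′ to 3′ on the minus strand. The window of IDH1 shown, chr2:208255022-208255321, lies at the gene's outermost start. The window of IDH2, chr15:90100572-90100871, belongs to an annotated start 1847 bases inside the gene. Capitals mark matches, on either strand, to 5 motifs. The GC box was searched as GGGCGG. The CCAAT box was searched by those letters. The TATA box was searched as TATAAA. The E-box was searched as CACGTG. The extended half-site of nuclear receptors was searched as AAGGTCA.
IDH2: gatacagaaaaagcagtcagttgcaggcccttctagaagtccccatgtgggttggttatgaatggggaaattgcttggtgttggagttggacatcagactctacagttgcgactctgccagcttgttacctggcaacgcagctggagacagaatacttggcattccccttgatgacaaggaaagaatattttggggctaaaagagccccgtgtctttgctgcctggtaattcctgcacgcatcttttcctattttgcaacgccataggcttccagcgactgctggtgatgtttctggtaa
IDH1: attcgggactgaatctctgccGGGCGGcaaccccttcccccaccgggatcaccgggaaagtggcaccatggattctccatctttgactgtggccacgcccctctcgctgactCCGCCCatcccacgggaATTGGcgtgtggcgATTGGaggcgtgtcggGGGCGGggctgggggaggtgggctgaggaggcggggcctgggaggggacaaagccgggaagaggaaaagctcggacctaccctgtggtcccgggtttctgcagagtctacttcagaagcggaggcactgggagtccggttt
The IDH1 window holds 3 matches to the GC box and 2 to the CCAAT box, none of which overlap, while the IDH2 window holds no match to any of the 5 motifs. GC content is 48.3% in the IDH2 window and 64.7% in the IDH1 window, with 6 and 20 CpG dinucleotides, against medians of 58.7% and 14 over 35116 windows. Of those windows 45.0% hold the GC box, 34.6% the CCAAT box, 11.5% the TATA box, 7.3% the E-box and 3.9% the half-site. A further IDH1 window, not shown, belongs to a start 613 bases inside the gene. It has 59.7% GC, 17 CpG dinucleotides, 2 GC box matches and no match to the other motifs. The windows shown thus set an outermost start beside an inner one. A match is a description of letters and says nothing here of a factor.

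The measured subunit genes of the NAD-linked isocitrate dehydrogenase did not share this order. IDH3B, the gene of its beta subunit on chromosome 20 (2658395 to 2664216), read 9.51, 9.82 and 9.78 in clones 8, 9 and 12. Clone 2 had 9.55, 10.30 and 10.31 on its 3 arrays. In wild type cells it was 10.12, and in the empty vector clones 9.93, 9.93 and 10.07. The 3 clones of construct V2LHS_62673 lay below every control array, and array 1 of clone 2 lay with them, apart from arrays 2 and 3. The share of all features with such a separation was not counted. Construct V2LHS_62673 differed from the empty vector clones by -0.27 with all clones (SE 0.15, adjusted p = 0.742), and by -0.18 without clone 8 (SE 0.09, adjusted p = 0.409). Pearson's r of IDH3B with IDH2 was -0.53 over 8 samples and 0.133 without clone 8. IDH3G, the gene of the gamma subunit and a partner outside the members, read 9.74, 11.11 and 10.74 in clones 8, 9 and 12. On the arrays of clone 2 it read 10.96, 10.51 and 10.57. Wild type cells had 10.53 and the empty vector clones 10.69, 10.90 and 10.81, so clone 8 was the lowest array.

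CS encodes citrate synthase, which opens the cycle by joining acetyl-CoA to oxaloacetate. Its level was 10.41, 11.09 and 11.09 in clones 8, 9 and 12, and 10.97, 10.76 and 10.99 on the arrays of clone 2. The wild type array had 10.83, and the empty vector clones 10.95, 11.03 and 10.87. Clone 8 was the lowest array and clones 9 and 12 were the highest, with clone 2 inside the range of the controls but for 1 array. Against the empty vector clones, construct V2LHS_62673 differed by -0.09 with all clones (SE 0.22, adjusted p = 0.85) and by 0.14 without clone 8 (SE 0.09, adjusted p = 0.523). Clone 2 differed by -0.04 (adjusted p = 0.96 without clone 8).

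OGDH encodes the decarboxylating subunit of the 2-oxoglutarate dehydrogenase complex. Its levels were 9.54, 9.33 and 9.41 in clones 8, 9 and 12, 9.82, 10.06 and 10.01 on the arrays of clone 2, 9.65 in wild type cells and 9.56, 9.94 and 9.86 in the empty vector clones. The clones of construct V2LHS_62673, clone 8 among them, lay below all other arrays, and clone 2 lay above the empty vector mean on each of its arrays. The share of all features placed like this was not counted. Clone 2 differed from construct V2LHS_62673 by 0.54 (SE 0.23, adjusted p = 0.931), and by 0.59 without clone 8 (SE 0.16, adjusted p = 0.0892), neither of which passed. Against the empty vector clones, clones 9 and 12 differed by -0.42 (SE 0.12, adjusted p = 0.132) and clone 2 by 0.17 (SE 0.15, adjusted p = 0.688).

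The malate dehydrogenases close the cycle in mitochondria (MDH2) and carry its reducing power through the malate-aspartate shuttle in the cytosol (MDH1). MDH2 stood at 11.60, 10.04 and 10.24 in clones 8, 9 and 12, and at 10.58, 10.68 and 10.95 on the arrays of clone 2. The wild type array read 10.78, and the empty vector clones 10.26, 10.59 and 10.43. Clone 8 was the highest array by a wide gap, clones 9 and 12 were the lowest, and clone 2 lay near wild type. Clone 2 differed from construct V2LHS_62673 by 0.11 with all clones (SE 0.55, adjusted p = 0.959) and by 0.60 without clone 8 (SE 0.16, adjusted p = 0.0799). Clones 9 and 12 differed from wild type cells by -0.64 (SE 0.16, adjusted p = 0.0686). Over all alternatives for construct V2LHS_62673 minus wild type, the MDH2 difference was -0.67 to 0.14 and its adjusted p 0.0487 to 0.991, past the threshold with array weights alone. MDH1 stood at 10.43, 10.21 and 10.10 in clones 8, 9 and 12, and at 9.20, 10.11 and 10.01 on the arrays of clone 2. Wild type cells had 10.33, and the empty vector clones 10.28, 10.22 and 10.28. All 3 arrays of clone 2 were below the empty vector clones, and array 1 was far below the other 2. MDH1 fell by 0.49 in clone 2 relative to the empty vector clones in the fit without clone 8 (SE 0.12, limma adjusted p = 0.0467). Without array 1 of clone 2 as well, the difference was -0.20 (SE 0.12, adjusted p = 0.38), so that call rests on 1 array.

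**Figure D3:**
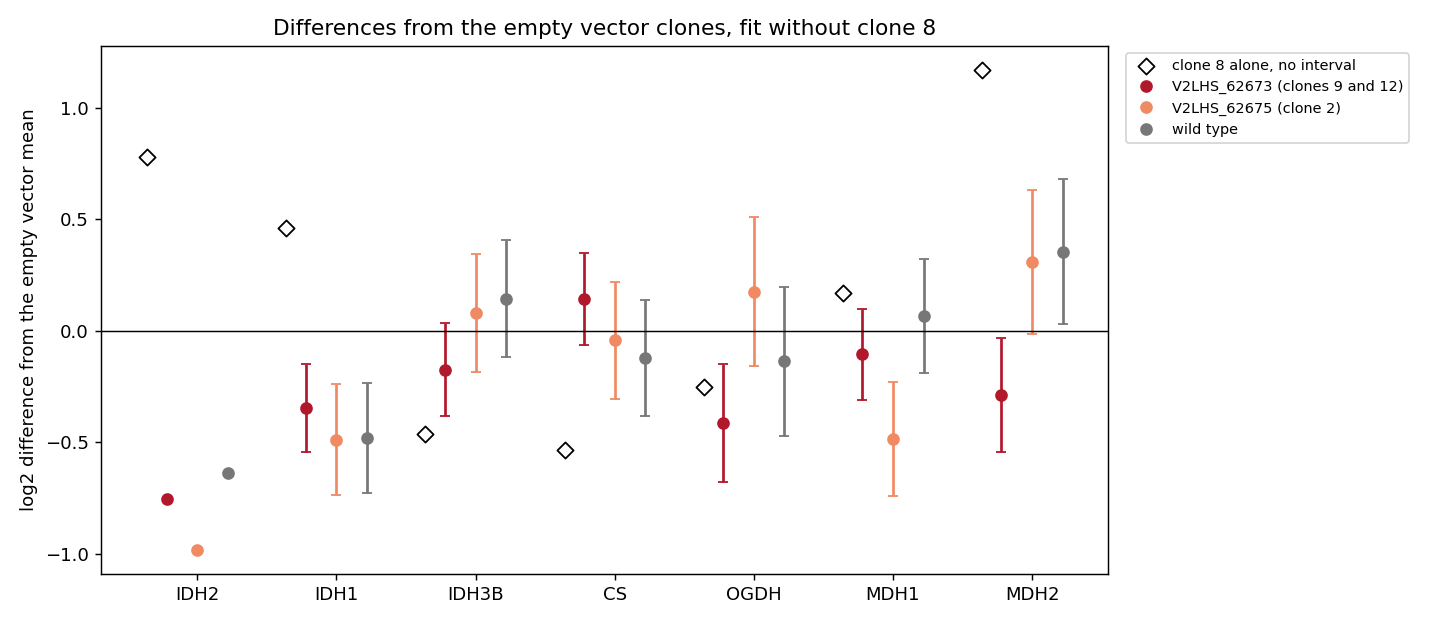
Log2 difference of each member from the empty vector mean, for clones 9 and 12 of construct V2LHS_62673, clone 2 of construct V2LHS_62675 and wild type cells in the fit without clone 8, with 95% intervals. Open diamonds give clone 8 alone with no interval, and IDH2 has none because it was chosen for this difference. IDH2 and IDH1 lie below 0 in all 3 groups and above 0 in clone 8, while the other members lie on both sides.

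Counted together without clone 8, 2 of the 6 members other than IDH2, namely IDH1 and MDH1, fell in clone 2 relative to the empty vector clones, for which 3.74% of all features were called and 2.21% were lower. In wild type cells 1 of 6, IDH1, fell, beside 3.57% of all features called and 1.89% lower. In clones 9 and 12 none of the 6 passed in limma, beside 0.991%. There 3 of 6 had an unadjusted p under 0.05, beside 1784 of all 11199 features. Clones 9 and 12 against wild type cells gave no member in limma, beside 1.42% of all features. An unadjusted p under 0.05 was seen in 2 of the 6, beside 1779 of all 11199 features. The knockdown clones against all negative controls called no feature, with or without clone 8, 0% of 11199. There 724 features had an unadjusted p under 0.05 without clone 8 and 256 with it, among them 1 and 0 of the 6 members. The median difference of the 6 members there was -0.11 with all clones and -0.18 without clone 8, against 0.04 and 0.0050 over all features. Between the constructs none of the members passed in limma without clone 8, beside 2.15% of all features. Of the 6 others 3 had an unadjusted p under 0.05, beside 1698 of all 11199 features. With array 1 of clone 2 also left out, which was tried after seeing the data, 3 members rose in clone 2 relative to clones 9 and 12, beside 8.54% of features called and 5.58% higher. Against the empty vector clones 1 of the 6, IDH1 (-0.43, limma adjusted p = 0.0366), then passed in clone 2, beside 9.08% of features. The 3 between the constructs were IDH3B (0.51, SE 0.13, adjusted p = 0.0342), OGDH (0.66, SE 0.16, adjusted p = 0.0307) and MDH2 (0.67, SE 0.16, adjusted p = 0.0248).

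Clone 8 departed from the empty vector mean by 0.78 in IDH2, 0.46 in IDH1, 1.17 in MDH2 and 0.17 in MDH1, and by -0.46 in IDH3B, -0.54 in CS and -0.25 in OGDH. The median absolute departure of clone 8 over all features was 0.55. At least as large a departure was seen in 28.2% of features for IDH2, 59.7% for IDH1 and 10.3% for MDH2. From the mean of clones 9 and 12, made with the same construct, clone 8 departed by 1.53 in IDH2, a size reached by 5.29% of features, by 1.46 in MDH2 (6.06%) and by 0.81 in IDH1 (26.8%). These are values of 1 array and have no replicate.

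The other genes of the pathway were described in 3 lists. Among 9 measured partners of the cycle, no gene passed with all clones in limma. Without clone 8, SUCLG2, which encodes the GTP-forming subunit of succinyl-CoA ligase, fell by 0.50 in clones 9 and 12 (SE 0.09, limma adjusted p = 0.0328). It fell by 1.43 in clone 2 (SE 0.11, limma adjusted p = 2.19e-04), and the difference between the constructs was -0.93 (SE 0.12, adjusted p = 0.00585). Its levels were 6.53, 8.51 and 8.44 in clones 8, 9 and 12, and 6.89, 7.79 and 7.95 on the arrays of clone 2. In wild type cells it was 8.80, and the empty vector clones 8.99, 8.99 and 8.95. Every hairpin array was below every control array, a separation whose share over all features was not counted. Over all alternatives the adjusted p of SUCLG2 was 2.19e-04 to 1 for clone 2 and 0.0231 to 0.956 for construct V2LHS_62673. Between the constructs its difference was -0.97 to 0.06 and its limma adjusted p 0.00585 to 0.99. Clone 8 lay below every array of clone 2, and array 1 of clone 2 lay below arrays 2 and 3. SDHC, a membrane anchor of succinate dehydrogenase, read 5.55 in clone 8, 8.90 and 8.97 in clones 9 and 12 and 8.57, 9.05 and 8.74 in clone 2, against 8.91 in wild type cells and 9.23 to 9.47 in the empty vector clones. It fell by 0.56 in clone 2 (SE 0.13, limma adjusted p = 0.0425 without clone 8). Thus 1 of 9 fell in clones 9 and 12, beside 0.991% of all features called, and 2 of 9 in clone 2, beside 3.74%, and none rose. SDHA (0.24) and the lipoamide dehydrogenase DLD (-0.26) did not pass in construct V2LHS_62673 with all clones.

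Of 10 measured genes of pyruvate and acetyl-CoA entry, PDP1, a phosphatase that activates pyruvate dehydrogenase, was lower by 0.66 in construct V2LHS_62673 with all clones, which did not pass (adjusted p = 0.742). Without clone 8 PDP1 fell by 0.90 (SE 0.13, limma adjusted p = 0.0145), to 8.36 and 8.65 in clones 9 and 12, against 9.27, 9.34 and 9.60 in the empty vector clones. Clone 8 stood at 9.20, clone 2 at 9.09 to 9.27 and wild type cells at 8.78. The inhibitory kinase gene PDK1 read 7.97, 9.35 and 9.62 in clones 8, 9 and 12, and 9.37 to 9.51 in clone 2, against 9.51 in wild type cells and 9.80 to 9.92 in the empty vector clones. Its difference in clones 9 and 12 was -0.36 (SE 0.11, adjusted p = 0.147). PDHA1, the catalytic subunit gene of pyruvate dehydrogenase, differed by 0.26 with all clones (adjusted p = 0.742). Without clone 8, 1 of 10 genes of this list fell in clones 9 and 12, beside 0.991% of all features called, and 1 of 10, PDK3, in clone 2, beside 3.74%. None rose against the empty vector clones. PDK3 also differed by -0.87 between the constructs (limma adjusted p = 0.0178) and by 0.69 between clones 9 and 12 and wild type cells (limma adjusted p = 0.0418).

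Of 14 measured genes linked to NADPH, citrate and malate, 13 lay below the empty vector mean in construct V2LHS_62673 with all clones. Of all 11199 features 5020 did. The median was -0.27 against 0.04 over all features, and none passed in limma. With the filter at the 50th percentile, which keeps brighter probes, the median over features was -0.07. All features are thus not a like background for bright genes when clone 8 is included. Without clone 8, 12 of the 14 lay below the empty vector mean, beside 5618 of all features. Below that mean lay also 12 of the 14 in wild type cells, beside 5797 of all features, and 10 of the 14 in clone 2, beside 4887. The 2-oxoglutarate and malate carrier SLC25A11 (-0.49, SE 0.17), the mitochondrial malic enzyme ME3 (-0.41) and the citrate lyase ACLY (-0.44) had the smallest p, each with an adjusted p of 0.742. Against all negative controls, the aspartate aminotransferase GOT1 stood at -0.36 and SLC25A11 at -0.35 (adjusted p = 0.761 each). In clone 8 alone GOT1 read 10.36 and ACLY 9.77, while the other arrays had 11.37 to 11.61 and 10.62 to 10.90. Without clone 8 the median of the list was -0.13 in construct V2LHS_62673, and 1 of 14, the mitochondrial citrate carrier SLC25A1, fell (-0.54, limma adjusted p = 0.0405), beside 0.991% of all features called. In wild type cells 1 of 14 fell against the empty vector clones, PCK2, mitochondrial phosphoenolpyruvate carboxykinase (-0.86, limma adjusted p = 0.032), beside 3.57% of all features. Between the constructs 1 of 14 rose in clone 2, the dicarboxylate carrier SLC25A10 (0.53, limma adjusted p = 0.0486), beside 2.15% of all features. Against wild type cells 2 of 14 fell in clones 9 and 12, SLC25A10 (-0.73, limma adjusted p = 0.0265) and the mitochondrial aspartate aminotransferase GOT2 (-0.92, limma adjusted p = 0.039), beside 1.42% of all features. PDK3, SLC25A1, SLC25A10, GOT2 and PCK2 were named as single calls after their values were seen.

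**Figure D4:**
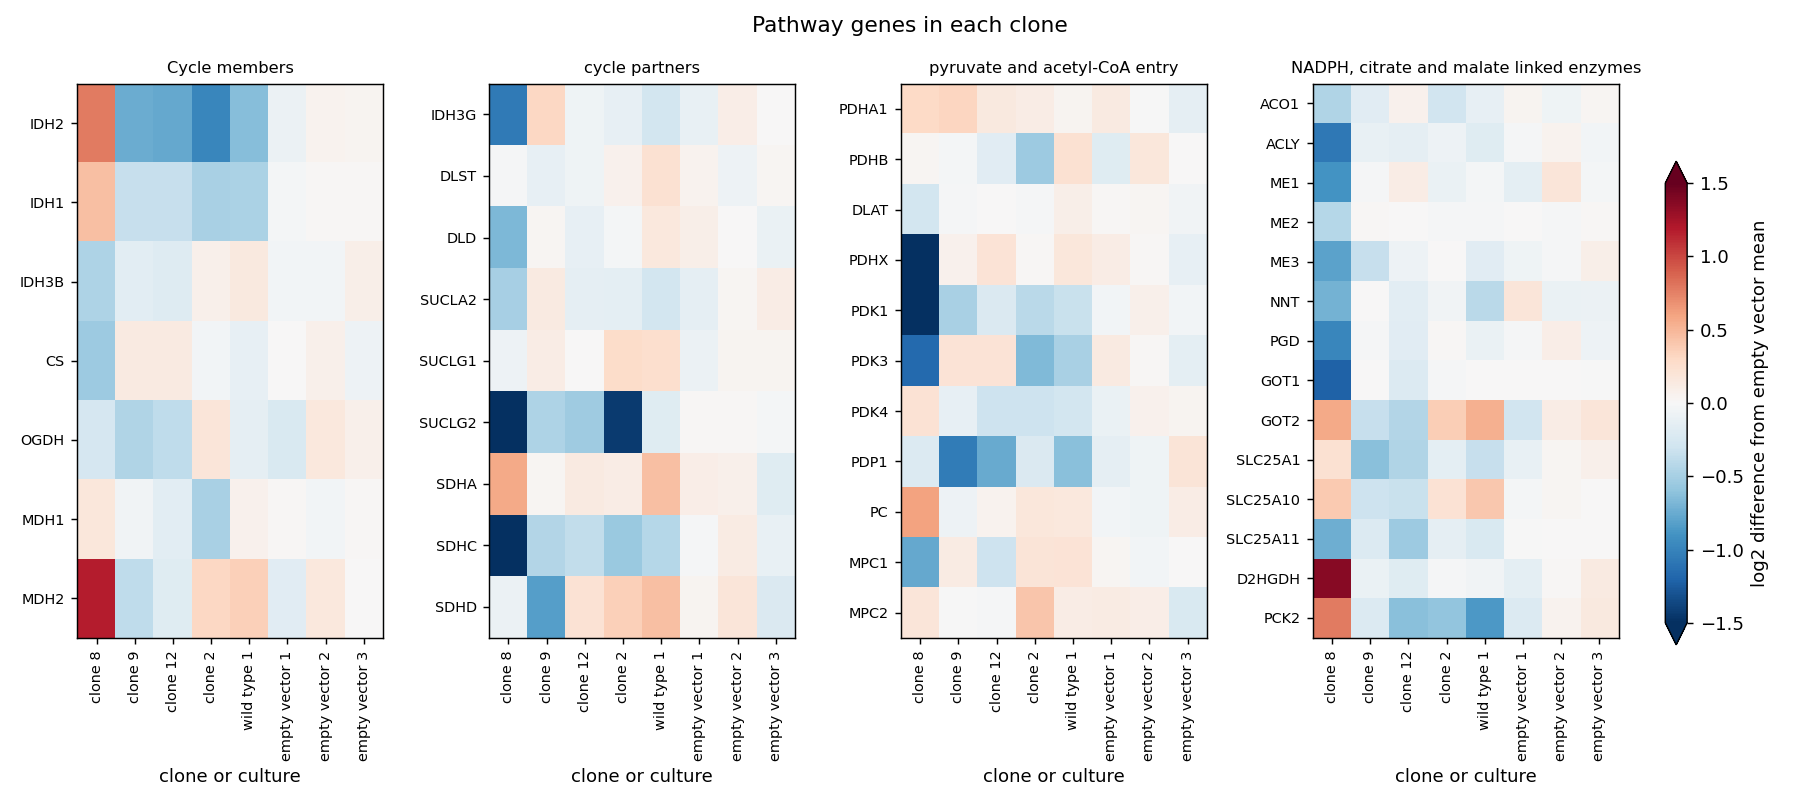
Log2 difference of each gene with a single-symbol probe from the empty vector mean (colour, limited to 1.5 either way) in the 4 hairpin clones, wild type cells and the 3 empty vector clones, for the members and 3 lists of pathway genes; PDK4 is drawn although its probe is below the filter. Clone 8 holds the strongest colour of each panel, and SUCLG2 is below 0 in every hairpin clone.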

How the data were processed

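The deposited values are 1 log2 number per transcript cluster (probe) and array; that they are log2 was inferred from their range. Which background correction and normalization the authors applied is not given in the sources used here. Per the labels, total RNA was depleted of ribosomal RNA and hybridised as biotin-labelled single-stranded cDNA. Of 22011 probes, 14432 carry 1 gene symbol in the platform annotation, 2408 several and 5171 none, and 14404 were matched by gene identifier to update the symbol. The probe with the highest mean stood for a gene. Those below 5.96, the 25th percentile of the probe means over the 8 samples, were dropped, leaving 11199 features with LMNB1's shared probe. The 3 arrays of clone 2 were averaged. limma 3.58.1 in R 4.3.3 (lmFit, eBayes) gave two-sided tests, adjusted by Benjamini-Hochberg across features at 0.05. The fit of 4 groups had 4 residual degrees of freedom. Since no label says that clones came from separate transductions, p-values reflect spread among these samples, and the number of arrays limits precision. The tests were checked on simulated data. The simulated spread came from a fit without clone 8, so that check does not cover the spread that clone 8 brings.

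All measured members are named, as are the 3 genes with the smallest p of each list in 2 comparisons and the 5 genes most like IDH2. IDH3G is named as the other measured subunit gene of the NAD-linked enzyme. The members and lists were chosen with earlier results of these data known. Alternatives covered scaling, filter, probe rule, prior, array weights, the repeats of clone 2, and leaving out each clone or array.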

Additional observations from a re-analysis of the deposited data

Results flagged for a closer look

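Within the 4 hairpin clones, clone 8 lay far from the other 3 in IDH2 (10.17) and in IDH1 (11.25), both above the rest. It lay far below them in ACLY (9.77), GOT1 (10.36), PDK1 (7.97) and SDHC (5.55). Within the 4 negative controls, wild type cells lay far below the empty vector clones in IDH1 (10.32) and in the carrier gene SLC25A11 (10.12). The rule was applied to 18 genes, each in 2 groups of 4, and the list genes among them had been picked for a small p in these data. Chance sets apart about 1 in 20 such groups, and the genes share the same arrays. Clone 8 differed from the rest over all probes, so that rate is no measure for clone 8. How often the rule sets clone 8 apart over all features was not counted. OGDH lay below the empty vector mean in every clone of construct V2LHS_62673 and above it on every array of clone 2, with a difference of 0.54 between the constructs. That difference did not pass in limma (adjusted p = 0.931).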

How the results depend on the processing

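Counts of genes past the threshold were 0 with all clones. The cause of the changes below was not tested. With array weights they were 338 for V2LHS_62673 minus empty vector, 472 for V2LHS_62675 minus empty vector, 479 for wild type minus empty vector, 371 between the constructs and 7 for knockdown minus controls. For V2LHS_62673 minus wild type they were 370 with array weights, where MDH2 passed, 159 without clone 8, array 1 of clone 2 kept or not, 83 without clone 8 after quantile normalization, and 0 or 1 otherwise. With every array as a replicate they were 6, 59, 15 (constructs) and 2 (knockdown), and with clone as a random block 5, 1, 4 and 1 for the same 4. Knockdown minus controls gave 1 with quantile normalization and 1 with a trended robust prior, and wild type minus empty vector gave 1 with no filter. Leaving out clone 8 with quantile normalization, chosen after seeing the data, gave 27, 285, 204 and 157 in the order V2LHS_62673, V2LHS_62675 and wild type against empty vector, then the constructs. Leaving out clone 8 and array 1 of clone 2, likewise chosen, gave 111, 1017, 400 and 956. Leaving out 1 clone or array at a time gave 0 to 111, 0 to 419, 0 to 400 and 0 to 241, each highest without clone 8, and 0 to 3 for knockdown, highest without wild type. Members past the threshold then ranged from 0 to 2 in V2LHS_62675 and 0 to 1 in wild type. They were 2 and 1 with array weights, 2 and 1 without clone 8 after quantile normalization, and 1 and 1 without clone 8 and array 1, where 3 passed between the constructs. Replicate numbers shared by clone 2 and empty vector arrays did not pair them (correlations of deviations 0.029, -0.153 and -0.235), and the replicate block gave 944 genes and 1 member.

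Directions changed as follows under array weights, without clone 8 and array 1, and without clone 8 after quantile normalization. IDH2 in V2LHS_62673 minus wild type was -0.10, -0.12 and -0.09. CS in V2LHS_62673 minus empty vector was 0.12, 0.14 and 0.12, between the constructs -0.18, -0.22 and -0.22, and in knockdown 0.11, 0.10 and 0.09. MDH2 in V2LHS_62673 was -0.31, -0.29 and -0.30, and in knockdown -0.15, -0.15 and -0.19. With quantile normalization alone CS was -0.09 between the constructs and 0.01 in knockdown, and MDH1 was 0.06 in V2LHS_62673. In the contrast MDH1, wild type minus empty vector was -0.0079 with quantile normalization and -0.0081 also without clone 8. Leaving out 1 at a time moved IDH2 over -0.75 to 0.02 in V2LHS_62673 minus empty vector and -0.12 to 0.66 in V2LHS_62673 minus wild type, and IDH1 over -0.35 to 0.06 in V2LHS_62673 and -0.27 to 0.04 in knockdown. It moved IDH3B in V2LHS_62675 over -0.05 to 0.33 and MDH1 in V2LHS_62673 over -0.11 to 0.06. CS ranged from -0.20 to 0.14 in V2LHS_62673, -0.08 to 0.03 in V2LHS_62675, -0.18 to 0.16 between the constructs and -0.12 to 0.11 in knockdown. MDH2 ranged from -0.29 to 0.49 in V2LHS_62673, -0.18 to 0.60 between the constructs and -0.18 to 0.34 in knockdown.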
